A study of Mus musculus with 31 samples.

Results

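STAT3, STAT5 and STAT6, the kinase Jak2 and the feedback and target genes Socs1, Socs2, Socs3, Cish and Pim1 were followed in Ly6C-high monocytes of healthy and tumor-bearing mice. The 10 genes were taken by symbol from the 24411 entries of the deposited gene count table; all 10 were found and all 10 passed the filter on low counts that left 12337 genes for testing. RNA was sequenced from 3 libraries in each of 3 groups, all of C57BL/6J mice: blood monocytes of healthy mice (healthy blood), blood monocytes of mice carrying a subcutaneous Lewis lung carcinoma (LLC blood), and monocytes from such tumors (LLC tumor). LLC is a mouse lung carcinoma line that is transplanted into mice of the same strain. All 3 groups were sorted as CD11b-positive cells that lacked Ly6G and MHC class II and had high Ly6C, so tumor monocytes that had gained MHC class II were outside the gate. The labels give no age, sex, tumor size or pooling of animals, and they do not say that the 3 RNA libraries of a group came from separate mice, so p-values measure the spread between these libraries, which may be technical. The study's 22 other libraries, which profile chromatin, were not analysed here.

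Cytokine receptors without a kinase domain of their own carry Janus kinases (JAKs) such as JAK2, which phosphorylate STAT proteins after ligand binding; paired STATs then enter the nucleus and bind DNA. STAT3 acts below the IL-6, IL-10 and G-CSF receptors, STAT5A and STAT5B below the GM-CSF, IL-3 and growth hormone receptors, and STAT6 below the IL-4 and IL-13 receptors. CISH and SOCS1 to SOCS3 are induced by STATs and damp the same receptors, and PIM1 is a STAT-induced kinase that favours survival. Messenger RNA of a feedback gene is often read as a trace of signalling, whereas messenger RNA of a STAT says nothing of its phosphorylation.

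STATs bind sequences in which TTC and GAA stand 3 bases apart, or 4 bases apart for STAT6, and these letters were searched in the promoters of the members, from 250 bases before to 50 after a start site (RefSeq, GRCm38.p6). The motif reads the same on both strands. A window was found for 9 of the 10 genes, 12 windows in all; Socs2 had none. The 3-base spacing occurred in 2 of the 12 windows, those of Cish and Socs3, and the 4-base spacing in 0. Among all 32851 windows of this length, 8.30% held the 3-base spacing at least once, 0.457% held it at least 2 times, and 6.95% held the 4-base spacing. The sequences of both windows with a match are shown because these are the feedback genes for which STAT5 and STAT3 are named; capitals mark the matches, and each run is written 5′ to 3′ on the gene's strand. Cish (chr9:107296654-107296683, plus strand) held 2 matches, at bases 1 to 9 and 12 to 20 after its start. Socs3 (chr11:117969367-117969616, minus strand, the 250 bases before its start) held 1 match, at 154 to 146 bases before the start. The start that the promoter table uses for Socs3 lies 970 bases inside the 5′ end of the gene's full annotated span, so this window is within that span; for Cish the distance is 0.
Cish: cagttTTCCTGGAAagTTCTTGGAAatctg
Socs3: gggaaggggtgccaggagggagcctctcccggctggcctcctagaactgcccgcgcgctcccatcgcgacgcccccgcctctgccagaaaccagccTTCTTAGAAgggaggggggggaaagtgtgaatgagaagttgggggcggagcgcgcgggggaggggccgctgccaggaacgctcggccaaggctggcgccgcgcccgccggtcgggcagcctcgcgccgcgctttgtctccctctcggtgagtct
A match is a run of letters in a window and not a measured binding site, and its absence elsewhere says only that these letters are not in those windows.

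Libraries held 10457492 to 20706412 counts. The summed level of 8 Ly6C-high monocyte markers was 9907 to 10964 counts scaled to library size (CPM, the usual per-library unit) in healthy blood, 9929 to 10155 in LLC blood and 7643 to 11577 in LLC tumor, and no marker of this list was at 0 in any group. LLC tumor 1 stood apart in its scaling factor for composition (0.798, against 0.968 to 1.07 elsewhere). LLC blood 1 stood apart in 6 fibroblast markers, at 388.7 CPM against 1.30 and 1.85 in the other LLC blood libraries. These markers summed to 3.02 to 15.0 CPM in healthy blood and to 1172, 3471 and 4052 CPM in LLC tumor 1, 2 and 3, with 0 of the 6 at 0 in the tumor. Markers of tumor or epithelial cells summed to 79.4, 102.2 and 78.6 CPM in LLC tumor 1, 2 and 3 and to 9.47 or less in blood. Of this sum Cdh1 (E-cadherin), which is also in the list of STAT6 targets used below, gave 40.5 to 66.2 CPM in tumor. The keratins Krt18 and Krt8 gave 4.98 to 34.9 and 7.92 to 14.2 CPM in tumor, against at most 0.415 and 0.277 CPM in blood. Krt7 was at 0.339 to 0.893 CPM in tumor and 6.28 to 7.54 CPM in healthy blood. In tumor Epcam did not exceed 0.179 CPM and Cdkn2a 0.0887 CPM. Neutrophil markers summed to 692.4, 868.7 and 651.7 CPM in healthy blood 1, 2 and 3, to 746.9, 1169 and 1034 CPM in LLC blood, and to 383.6, 534.2 and 439.0 CPM in LLC tumor, with 0 of 9 at 0 throughout a group. Most of this sum came from Csf3r (means of 509, 467 and 159 CPM in the 3 groups) and Mmp8 (167, 268 and 166 CPM). Ngp, Ltf, Retnlg, Camp and Cxcr2 each reached at most 22.04 CPM in any library. Natural killer (NK) cell markers summed to 190.7 to 475.3 CPM in healthy blood, 26.0 to 49.0 in LLC blood and 2.14 to 5.20 in LLC tumor, and T cell markers to 43.2 to 192.4, 4.88 to 9.66 and 2.06 to 3.34 CPM. Results that move with these lists are given with them below.

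**Figure D1:**
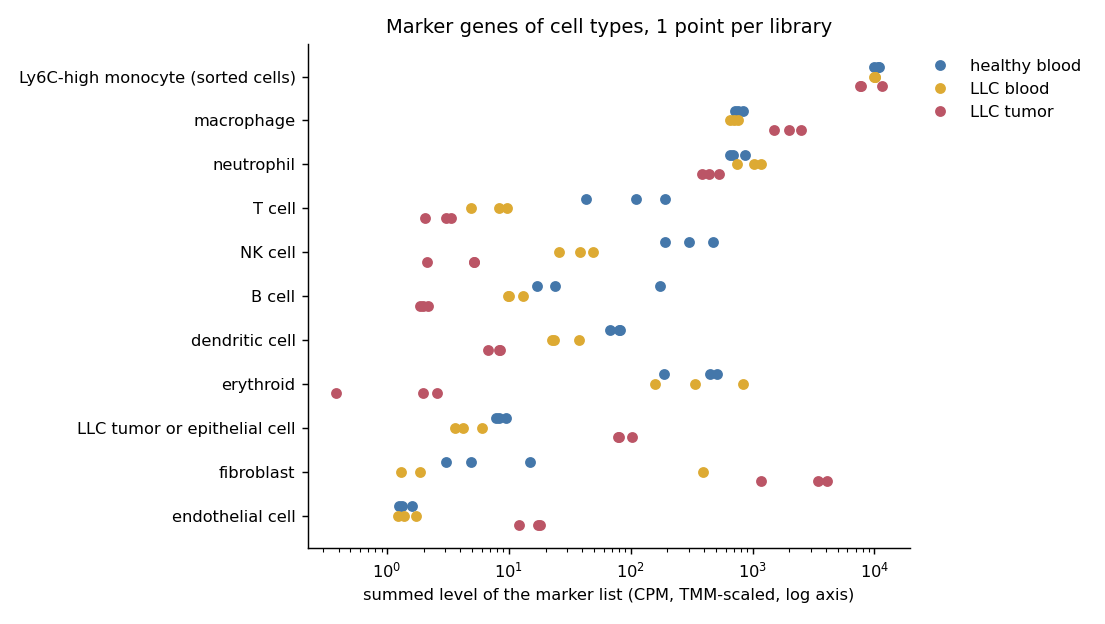
Summed level of each marker list (CPM on a log axis) in each of the 9 libraries, 1 point per library, coloured by group. Fibroblast markers lie at 1172 to 4052 CPM in LLC tumor and at 388.7 CPM in 1 LLC blood library, while NK and T cell markers are highest in healthy blood.

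Levels below are CPM scaled for composition by the TMM method, and changes are log2 fold changes ± standard error with Benjamini-Hochberg adjusted p from edgeR's quasi-likelihood test, called at an adjusted p under 0.05. Levels were not divided by transcript length, so they are compared between libraries for 1 gene and not between genes. In such bulk libraries, fewer cells with a transcript and less transcript per cell cannot be told apart. The 3 comparisons share libraries, so the fits are set side by side and are not independent of each other.

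In tumor monocytes Jak2, Socs2, Socs3, Cish and Pim1 stood above both kinds of blood monocytes in every library. Socs1 stood above LLC blood in every library but overlapped healthy blood, and Stat5a and Stat5b stood at 0.489 to 0.603 times their blood levels. Against LLC blood, 9 of the 10 genes were called, 6 higher (Jak2, Socs1, Socs2, Socs3, Cish, Pim1) and 3 lower (Stat3, Stat5a, Stat5b). In this comparison 61.3% of all genes tested were called, 29.6% higher and 31.7% lower, so the size of the changes says more than the count. The median change of the 10 genes was 1.37, against -0.03 over all genes tested. Against healthy blood, 8 were called, 6 higher and 2 lower, with 66.5% of all genes called, 33.5% higher and 33.0% lower. The medians were 1.16 for the 10 genes and -0.00 for all genes. The 3 tumor libraries lay wholly apart from those of LLC blood for 9 genes, where 65.9% of all genes did so (31.4% higher, 34.5% lower), and from those of healthy blood for 7, where 69.8% did so (34.4% higher, 35.3% lower).

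Between the 2 kinds of blood the differences were smaller and of mixed direction. In LLC blood, 5 of the 10 genes were called against healthy blood: Stat3, Stat5b and Socs3 higher, Socs1 and Cish lower. Of all genes tested, 23.6% were called, 14.0% higher and 9.61% lower. The median change was 0.18 for the 10 genes and -0.01 for all genes. For all 10 genes the 3 LLC blood libraries lay wholly above or wholly below the 3 healthy libraries, including the 5 that were not called (Stat5a, Stat6, Socs2, Jak2, Pim1). Of all genes tested, 51.9% were separated in this way, 25.7% higher and 26.1% lower. Without 1 library the number of the 10 genes called ranged from 2 to 7: it was 3 without any 1 of the healthy libraries, 2 without LLC blood 2 or LLC blood 3, and 7 without LLC tumor 1, although that library is in neither blood group. Leaving it out also took the median change of all genes in this comparison from -0.01 to -0.06; the cause was not tested.

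**Figure D2:**
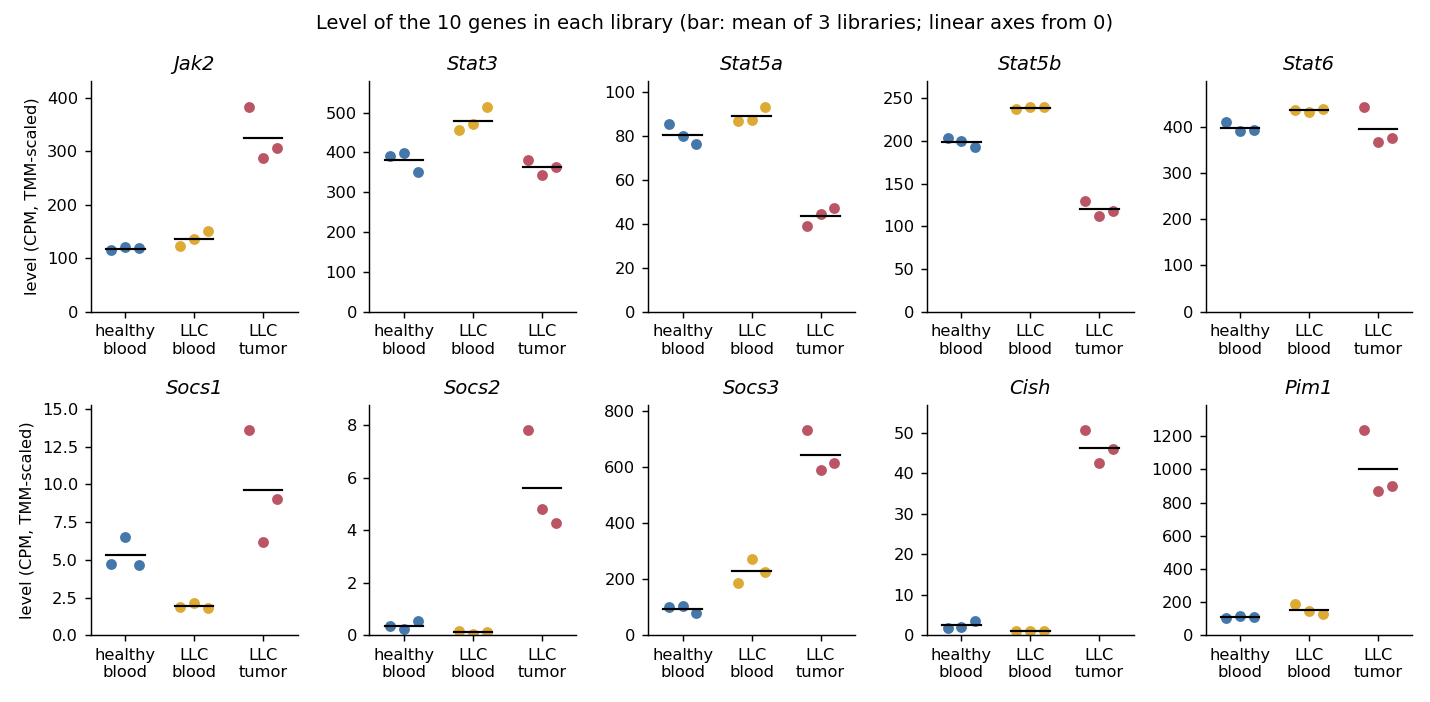
Level of each of the 10 genes (CPM, linear axes from 0) in the 9 libraries; points are libraries and bars the mean of 3. Cish, Socs2, Socs3, Jak2 and Pim1 lie higher in all 3 LLC tumor libraries than in any blood library, and Stat5a and Stat5b lie lower.

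Jak2 (chr19:29251803-29313095) encodes the kinase bound to the GM-CSF, IL-3, growth hormone and interferon-gamma receptors. It was at 114.8, 120.9 and 118.4 CPM in healthy blood, 122.5, 137.0 and 151.1 CPM in LLC blood, and 383.8, 287.3 and 305.9 CPM in LLC tumor. Every tumor library lay above every blood library. The tumor level rose 2.38-fold over LLC blood (1.25 ± 0.12, adjusted p = 1.94e-05) and 2.76-fold over healthy blood (1.46 ± 0.12, adjusted p = 6.29e-06). The step between the blood groups was 0.21 ± 0.12 and was not called (adjusted p = 0.222).

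The other 3 JAK kinases went different ways. Tyk2, which serves the interferon, IL-10 and IL-12 receptors, rose from 236 ± 7.53 CPM (SD, n = 3) in healthy blood to 331 ± 19.6 in LLC blood (0.49, adjusted p = 0.00174) and fell to 139 ± 3.55 in LLC tumor (-1.25 against LLC blood, adjusted p = 9.76e-07). Jak3, the partner of the common gamma chain, rose in LLC blood by 0.73 (adjusted p = 0.00618) and was at -0.27 in tumor against LLC blood (adjusted p = 0.118). Jak1 was 0.41 higher in tumor than in healthy blood (adjusted p = 0.00742), with 0.24 in LLC blood against healthy blood (adjusted p = 0.138) and 0.17 in tumor against LLC blood (adjusted p = 0.19). Of the 3 kinases, 2 were higher and 0 lower in LLC blood, where 23.6% of all genes were called. Tumor had 0 higher and 1 lower against LLC blood, where 61.3% of all genes were called. Against healthy blood 2 were higher and 1 lower, with 66.5% of all genes called. In that comparison the Jak3 call was lost without healthy blood 1 or 3 or LLC tumor 2 or 3. It was also lost with upper-quartile factors or library totals.

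Stat3 (chr11:100886806-100939594) showed a modest rise in the blood of tumor-bearing mice and stood back at the healthy level in tumor. Its levels were 391.1, 397.7 and 351.8 CPM in healthy blood, 455.0, 470.0 and 514.7 CPM in LLC blood, and 380.7, 342.8 and 363.5 CPM in LLC tumor. LLC blood was the high group, and tumor and healthy blood overlapped. Stat3 rose 1.26-fold in LLC blood (0.34 ± 0.09, adjusted p = 0.0231) and fell in tumor against LLC blood (-0.41 ± 0.09, adjusted p = 0.00301). Tumor and healthy blood differed by -0.07 ± 0.09 (adjusted p = 0.508). The call in blood was lost without any 1 healthy library and without LLC blood 2 or LLC blood 3, with the change between 0.28 and 0.39 in all alternatives run and adjusted p up to 0.104.

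Stat5a (chr11:100859351-100885169) and Stat5b (chr11:100780731-100859004) are neighbours of Stat3 on chromosome 11, with 346 bases between Stat5b and Stat5a and 1636 between Stat5a and Stat3. Their proteins are near-identical copies that serve the same receptors. The deposited counts of both were fractional in 9 of 9 libraries, whereas their sum was whole within 0.01 in 9 of 9, so reads matching both had been divided between them and the split is uncertain.

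Stat5b was at 204.3, 199.6 and 193.4 CPM in healthy blood, 237.7, 240.1 and 240.4 CPM in LLC blood, and 129.3, 112.3 and 118.6 CPM in LLC tumor. The 3 groups did not overlap, with LLC blood highest and tumor lowest. Stat5b rose by 0.27 ± 0.07 in LLC blood (adjusted p = 0.0238) and fell in tumor to 0.501 times the LLC blood level (-0.996 ± 0.07, adjusted p = 3.25e-06) and 0.603 times the healthy level (-0.73 ± 0.07, adjusted p = 1.84e-05). The rise in blood lost its call without any 1 healthy library and without LLC blood 2 or LLC blood 3 (adjusted p up to 0.136).

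Stat5a was at 85.6, 79.9 and 76.5 CPM in healthy blood, 87.1, 87.6 and 93.5 CPM in LLC blood, and 39.0, 44.7 and 47.4 CPM in LLC tumor. All tumor libraries lay far below all blood libraries. It fell by 1.03 ± 0.09 against LLC blood (adjusted p = 9.24e-06) and by 0.88 ± 0.09 against healthy blood (adjusted p = 2.06e-05), and was not called between the blood groups (0.15 ± 0.08, adjusted p = 0.238). With the counts of both genes summed, the changes were 0.23 in LLC blood against healthy blood (adjusted p = 0.0339), -1.01 in tumor against LLC blood (adjusted p = 2.35e-06) and -0.77 against healthy blood (adjusted p = 9.65e-06). Stat5a made up 26.7% to 29.5% of the sum in 8 libraries and 23.2% in LLC tumor 1.

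Stat6 (chr10:127642955-127660987) moved least. It was at 410.0, 391.2 and 391.8 CPM in healthy blood, 436.1, 432.1 and 439.1 CPM in LLC blood, and 443.2, 366.1 and 375.6 CPM in LLC tumor. LLC tumor 1 was the highest of the 9 libraries and the other 2 tumor libraries were the lowest. No comparison was called: 0.13 ± 0.09 between the blood groups (adjusted p = 0.315), -0.14 ± 0.09 in tumor against LLC blood (adjusted p = 0.191) and -0.01 ± 0.09 against healthy blood (adjusted p = 0.929). Against LLC blood the call was gained without LLC tumor 1 and with other scaling (upper-quartile factors or library totals), with the change between -0.35 and -0.08.

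Stat2, which carries interferon signals, fell in tumor by 0.69 against LLC blood (adjusted p = 0.00264). Stat4, the IL-12 STAT, which NK and T cells also express, fell by 0.87 in LLC blood (adjusted p = 0.0448) and rose by 1.35 in tumor against LLC blood (adjusted p = 0.00202). The fall in blood went with the fall in NK and T cell markers given above, whose part in it was not tested, and its call was lost when any 1 of 6 libraries was left out, namely healthy blood 2 or 3, LLC blood 1, 2 or 3, or LLC tumor 3.

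Cish (chr9:107296659-107302784), an SH2 protein induced by STAT5 that binds cytokine receptors, was scarce in blood and far higher in tumor. It was at 1.80, 2.02 and 3.56 CPM in healthy blood, 1.18, 1.04 and 1.16 CPM in LLC blood, and 50.5, 42.4 and 45.9 CPM in LLC tumor, from 13 to 60 counts per blood library and 447 to 514 per tumor library. The tumor libraries were close to each other and far above all blood libraries. Cish rose 40.8-fold over LLC blood (5.35 ± 0.24, adjusted p = 3.12e-07) and 18.6-fold over healthy blood (4.22 ± 0.22, adjusted p = 4.78e-07). In the tumor libraries 0.378 to 0.391 Cish counts were present per Stat5b count, against 0.00432 to 0.0184 in blood, a ratio of counts and not of molecules.

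In LLC blood, Cish fell below healthy blood by 1.13 ± 0.27 (adjusted p = 0.0151). The call was lost without LLC blood 2 or LLC blood 3 (adjusted p up to 0.063). Healthy blood 3, the library with the most Cish, also had the highest sums of NK markers (475.3 CPM) and T cell markers (192.4 CPM). NK and T cells transcribe Cish, and the part of these cells in the difference was not tested. In tumor, where Cish was highest, NK markers summed to 2.14 to 5.20 CPM and T cell markers to 2.06 to 3.34 CPM.

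Socs2 (chr10:95383903-95417321), a STAT5 target that restrains growth hormone signalling, was rare in blood. Its counts were 5, 4 and 9 in healthy blood, 2, 1 and 3 in LLC blood, then 69, 54 and 48 in LLC tumor, or 0.346, 0.237 and 0.534 CPM, 0.182, 0.0648 and 0.139 CPM, and 7.80, 4.79 and 4.29 CPM. The groups did not overlap. With so few counts in LLC blood the ratio of summed counts per library size was taken, and tumor stood 43.7 times above LLC blood (exact 95% interval 19.7 to 120.8, counting error only; edgeR adjusted p = 1.36e-05). Against healthy blood Socs2 rose by 3.88 ± 0.42 (adjusted p = 3.68e-05). LLC blood stood at 0.335 times healthy blood (interval 0.109 to 0.880), which the test across libraries did not call (adjusted p = 0.0803).

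Socs3 (chr11:117966079-117970336), the STAT3-induced inhibitor of IL-6-type and G-CSF receptors, stepped up in blood and again in tumor. It was at 101.7, 103.4 and 81.0 CPM in healthy blood, 186.9, 271.3 and 226.6 CPM in LLC blood, and 730.6, 590.5 and 612.7 CPM in LLC tumor. The 3 groups were fully apart. Socs3 rose 2.40-fold in LLC blood (1.26 ± 0.16, adjusted p = 0.000779), 2.82-fold from LLC blood to tumor (1.50 ± 0.16, adjusted p = 3.35e-05), and 6.76-fold from healthy blood to tumor (2.76 ± 0.16, adjusted p = 9.31e-07). Without LLC blood 1, the library with fibroblast markers, the rise in blood was still called, as it was under all 18 alternatives (1.12 to 1.40). The neutrophil marker sums given above had the same order as Socs3 across the 3 libraries within each blood group. Within the tumor the order was the reverse, which rested on the scaling factor of LLC tumor 1 (0.798). Csf3r, the G-CSF receptor, and S100a8 of that list are also transcribed by monocytes. The part of neutrophils in the blood rise was not tested. Socs3 counts per Stat3 count were 0.230 to 0.260 in healthy blood, 0.411 to 0.577 in LLC blood and 1.69 to 1.92 in tumor.

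Socs1 (chr16:10783808-10785536), the inhibitor best known for damping interferon and IL-4 signals, dipped in LLC blood. It was at 4.70, 6.52 and 4.69 CPM in healthy blood, 1.91, 2.14 and 1.81 CPM in LLC blood, and 13.6, 6.21 and 9.02 CPM in LLC tumor. LLC blood was the lowest group throughout, and LLC tumor 2 fell within the healthy range. Socs1 fell by 1.44 ± 0.30 in LLC blood (adjusted p = 0.00875) and rose by 2.29 ± 0.30 from LLC blood to tumor (adjusted p = 0.000154). The fall in blood went with lower NK, T, B and dendritic cell marker sums, whose part in it was not tested. B cell markers summed to 16.9, 174.7 and 23.9 CPM in healthy blood 1, 2 and 3, and to 9.85 to 13.1 CPM in LLC blood. Tumor stood 0.85 ± 0.28 above healthy blood (adjusted p = 0.0243), a call that was lost without healthy blood 1, healthy blood 3 or LLC tumor 1 (adjusted p up to 0.0878).

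Pim1 (chr17:29490785-29496111), a serine/threonine kinase induced by STAT3 and STAT5, rose strongly in tumor. It was at 107.3, 115.6 and 113.0 CPM in healthy blood, 191.3, 146.2 and 130.2 CPM in LLC blood, and 1235, 872.5 and 902.3 CPM in LLC tumor. All tumor libraries were far above all blood libraries, with LLC tumor 1 highest. Pim1 rose 6.44-fold over LLC blood (2.69 ± 0.18, adjusted p = 2.09e-06) and 8.96-fold over healthy blood (3.16 ± 0.18, adjusted p = 7.93e-07). In LLC blood it stood at 0.48 ± 0.17 above healthy blood, which was not called (adjusted p = 0.0714) but was called under 5 alternatives, among them the test without LLC tumor 1.

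The sums of fibroblast, tumor cell and macrophage markers were higher in every tumor library than in any blood library. LLC tumor 1 had the highest Jak2, Socs1, Socs2, Socs3, Cish and Pim1 levels of the 3 tumor libraries. It also had the lowest fibroblast sum (1172 CPM), a tumor cell sum of 79.4 CPM (102.2 and 78.6 in the others) and the scaling factor that stood apart (0.798). Cish counts were 447, 478 and 514 in LLC tumor 1, 2 and 3, and Socs3 counts 6461, 6654 and 6860. These came from total counts of 11075725, 11281247 and 11572942, so LLC tumor 1 led in Cish and Socs3 only through its scaling factor. Macrophage markers summed to 1499 to 2511 CPM in tumor, 712.3 to 826.7 in healthy blood and 650.8 to 756.4 in LLC blood, highest in LLC tumor 1. The part of these cells in the results was not tested.

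**Figure D3:**
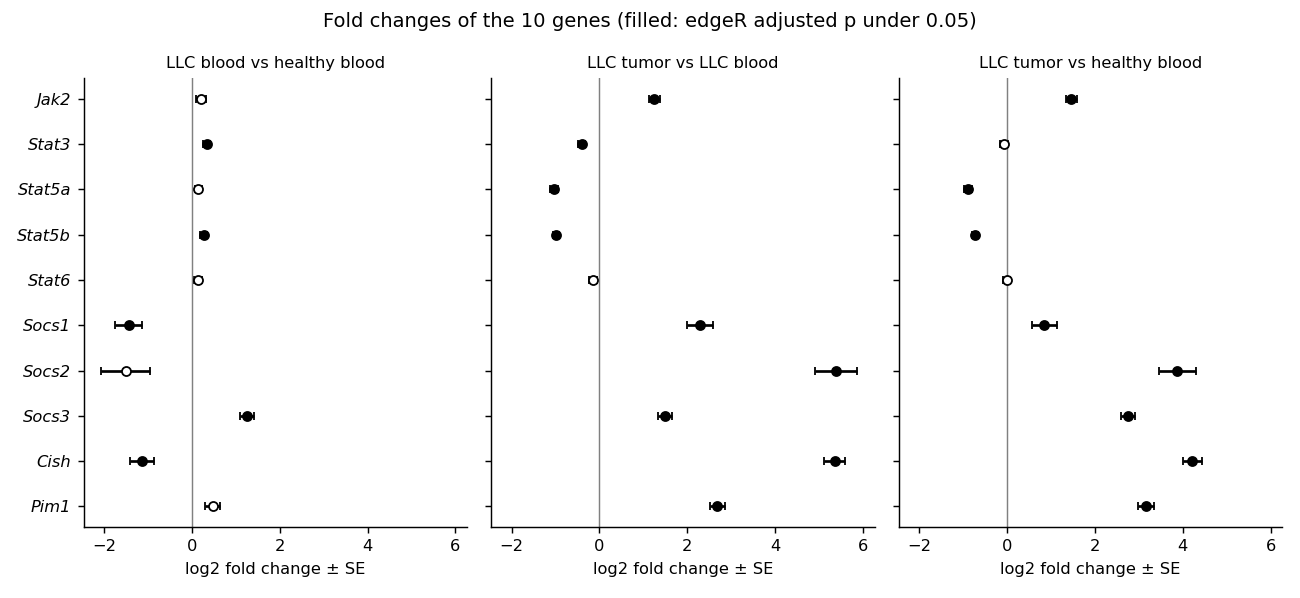
Log2 fold change ± standard error of the 10 genes in the 3 comparisons; filled points have an edgeR adjusted p under 0.05. In both tumor comparisons the points for Jak2, the Socs genes, Cish and Pim1 lie above 0, up to 5.39, and those for Stat5a and Stat5b below 0, down to -1.03.

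Of the 4 other SOCS genes, Socs4 rose 2.72-fold in LLC blood (1.45 ± 0.14, adjusted p = 0.000219), from 9.24 ± 0.890 CPM (SD, n = 3) to 25.1 ± 4.31, and stood at 21.3 ± 0.932 in tumor. In tumor against LLC blood, Socs6 rose by 0.37 (adjusted p = 0.00319, not called with library totals) and Socs7 fell by 0.31 (adjusted p = 0.0114). Socs5 was not called in any comparison (0.35 in LLC blood, adjusted p = 0.0891). The number of these 4 genes called in LLC blood (1, higher) was 2 without healthy blood 3 and 3 without LLC tumor 1. In each tumor comparison 1 was higher and 1 lower.

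The counts over this list and those that follow stand beside 23.6% of all genes called in LLC blood against healthy blood, 61.3% in tumor against LLC blood and 66.5% in tumor against healthy blood. A list of 12 other inhibitors of the pathway was tested, among them phosphatases, PIAS proteins and CBL ubiquitin ligases. In LLC blood 3 were higher and 0 lower; in tumor 2 were higher and 8 lower against LLC blood, and 3 higher and 7 lower against healthy blood. Cbl, a ubiquitin ligase for receptors and kinases, rose 8.39-fold in LLC blood (3.07 ± 0.12, adjusted p = 6.28e-06), from 29.1 to 37.8 CPM in healthy blood to 247.8 to 302.5 CPM, and stood at 172.3 to 179.5 CPM in tumor. The phosphatases Ptpn1 and Ptpn11 rose there by 0.40 (adjusted p = 0.0178) and 0.25 (adjusted p = 0.031), calls that were each lost without healthy blood 2, healthy blood 3, LLC blood 2 or LLC blood 3, and for Ptpn1 also without healthy blood 1. The Ptpn11 call was lost, too, with upper-quartile factors, with library totals and without the filter on low counts. In tumor the phosphatase Ptpn6 (SHP-1) fell by 1.28 against LLC blood (adjusted p = 9.62e-06), the JAK2 adaptor Sh2b3 by 1.10 (adjusted p = 5.32e-06), the phosphatase Ptprc (CD45) by 0.99 (adjusted p = 0.000174) and the ligase Cblb by 0.89 (adjusted p = 2.81e-05). With healthy blood 2, healthy blood 3, LLC blood 2 or LLC blood 3 left out, the count called in blood was 1; it was 6 without LLC tumor 1.

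Ligands that act through these STATs were mostly rare: 9 of 27 passed the filter. In tumor against LLC blood 6 were higher and 2 lower. Oncostatin M (Osm), which signals through gp130, was at 8.78, 8.42 and 11.4 CPM in healthy blood, 14.8, 5.64 and 4.40 CPM in LLC blood, and 1260, 904.1 and 930.9 CPM in LLC tumor. All tumor libraries were far above blood. Osm rose 130.2-fold over LLC blood (7.03 ± 0.44, adjusted p = 1.56e-06). Lif rose by 5.77 ± 0.38 (adjusted p = 2.05e-06) to 51.2 to 115.7 CPM, and Clcf1 by 3.30 ± 0.20 (adjusted p = 1.07e-06). Both Osm and Lif were highest in LLC tumor 1, the tumor library with the lowest fibroblast sum and the highest macrophage sum. The part of these cells in the rises was not tested.

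In LLC blood 0 ligands were higher and 4 lower against healthy blood. Clcf1, a gp130 ligand, fell by 2.18 (adjusted p = 0.000143), Ebi3, a subunit of IL-27, by 1.14 (adjusted p = 0.00619), and Il15, a STAT5-activating cytokine, by 0.85 (adjusted p = 0.00868). Dendritic cell markers fell alongside, from 67.7 to 82.2 CPM in healthy blood to 22.7 to 37.3 in LLC blood, and their part in these values was not tested.

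Receptor chains changed in both directions; 24 of 29 passed the filter. In LLC blood 6 were higher and 4 lower, where 14.0% of all genes were called higher and 9.61% lower. Il4ra, the chain through which IL-4 and IL-13 reach STAT6, was at 127.7, 153.6 and 139.0 CPM in healthy blood, 269.7, 330.4 and 321.8 CPM in LLC blood, then 875.8, 661.6 and 662.8 CPM in LLC tumor. The groups were fully apart, and Il4ra rose by 1.13 ± 0.14 in LLC blood (adjusted p = 0.000707) and by a further 1.25 ± 0.14 in tumor (adjusted p = 4.54e-05). Il6st (gp130) rose by 1.06 ± 0.11 in LLC blood (adjusted p = 0.000292) and fell by 0.98 ± 0.11 in tumor (adjusted p = 4.92e-05), so that tumor stood at the healthy level (0.08 ± 0.11, adjusted p = 0.539). Csf2rb2, the mouse IL-3 receptor beta chain, rose by 0.74 in LLC blood (adjusted p = 0.00452). Its counts were fractional, so reads may be shared with its near copy Csf2rb. Il2rb, a chain carried by NK and T cells, fell by 2.37 (adjusted p = 0.00101) together with the markers of those cells, whose part was not tested.

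In tumor against LLC blood 8 of the 24 chains were higher and 9 lower, a share near that of all genes (29.6% higher and 31.7% lower). The IL-7 receptor chain Il7r rose by 7.49 ± 0.53 (adjusted p = 3.11e-06), to 102.9 to 152.1 CPM. The growth hormone receptor Ghr rose by 7.11 ± 0.69 (adjusted p = 2.12e-05), to 8.25, 32.0 and 30.7 CPM in LLC tumor 1, 2 and 3. The oncostatin M receptor Osmr had 0 or 1 count in every blood library and 2.60, 20.4 and 13.4 CPM in tumor, a ratio of summed counts of 618.1 (exact 95% interval 110.3 to 24473; adjusted p = 0.000103). The single LLC blood count was in LLC blood 3, and without that library tumor stood at least 113.4-fold higher, taking 3 counts over the group as the floor. Ghr and Osmr were lowest in LLC tumor 1, as were the fibroblast markers, whose part in these rises was not tested. Lifr fell by 2.07 ± 0.16 (adjusted p = 4.66e-06).

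**Figure D4:**
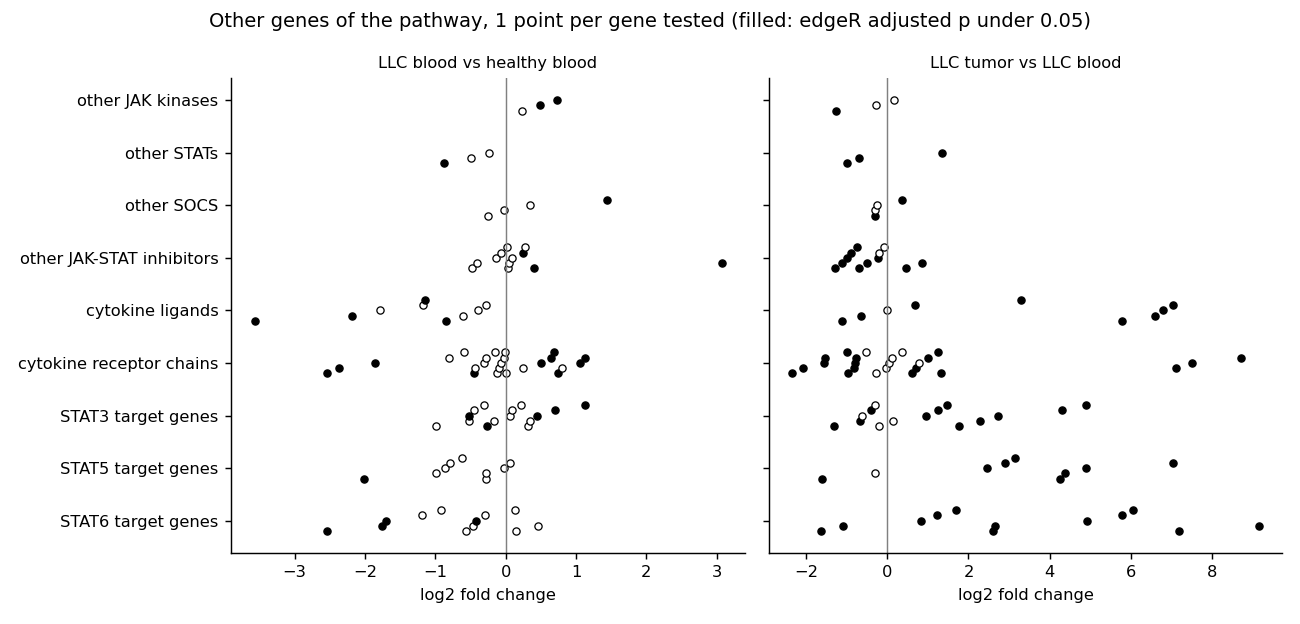
Log2 fold change of the other pathway genes tested, 1 point per gene and 1 row per list, for LLC blood against healthy blood and LLC tumor against LLC blood; filled points have an edgeR adjusted p under 0.05, and some genes stand in more than 1 list. In tumor, 7 of 9 STAT5 and 10 of 12 STAT6 target genes are filled to the right of 0, and in LLC blood 0 are.

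Lists of known target genes were read beside the STATs themselves; Socs and Pim genes were left out of them, and Osm, Myc, Il4ra and Il2ra also stand in another list. Of 15 STAT3 targets, 3 were higher and 2 lower in LLC blood. Against LLC blood, tumor had 8 higher and 3 lower, and against healthy blood 10 higher and 3 lower. The medians were 0.07, 0.95 and 0.64. In LLC blood Sbno2, a corepressor, rose by 0.70 (adjusted p = 0.00243) and the transcription factor Nfil3 by 0.45 (adjusted p = 0.00663), while Cebpb fell by 0.52 (adjusted p = 0.00612). In tumor Myc rose by 4.88 (adjusted p = 3.09e-06), the IL-1 receptor antagonist Il1rn by 4.30 (adjusted p = 1.27e-05), Hif1a by 2.72 (adjusted p = 6.47e-07) and Nfil3 by 2.29 (adjusted p = 2.08e-07). Others of the list went down, among them Cebpd, from 71.0 to 72.7 CPM in LLC blood to 26.8 to 31.1 in tumor. Bcl3 was at 73.4 to 99.2 CPM in LLC blood and 45.7 to 64.1 in tumor. The count in LLC blood was 11 without LLC tumor 1.

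Of 11 STAT5 targets, 9 passed the filter. In LLC blood 0 were higher and 1 lower, in tumor 7 higher and 1 lower against LLC blood, and 7 higher and 2 lower against healthy blood, with medians of -0.62, 3.14 and 2.42. The counts and medians take every gene of a list with the same sign, whether a STAT raises or represses it. Bcl6 went down, from 133.9 to 170.0 CPM in LLC blood to 38.5 to 69.8 in tumor. Besides Osm and Myc, the stress gene Gadd45g rose by 4.39 (adjusted p = 2.38e-06) and the cyclin Ccnd1 by 4.25 (adjusted p = 2.22e-06). Ccnd1 was at 33.8 CPM in LLC tumor 1 and at 70.0 and 57.8 in LLC tumor 2 and 3; LLC tumor 1 was also the lowest in fibroblast markers, whose part was not tested. The cyclin Ccnd2 fell in LLC blood by 2.01 (adjusted p = 0.00243) with the NK and T cell markers, whose part was not tested. The count in LLC blood reached 5 without LLC tumor 1, and was 2 without healthy blood 1 or LLC tumor 3 and 3 without LLC blood 1 or LLC tumor 2.

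Of 16 STAT6 targets, 12 passed the filter. In LLC blood 0 were higher and 4 lower, in tumor 10 higher and 2 lower against LLC blood, and 8 higher and 2 lower against healthy blood, with medians of -0.51, 2.63 and 1.59. The fatty acid receptor Cd36 fell in LLC blood by 2.54 (adjusted p = 0.000413) and the mannose receptor Mrc1 by 1.70 (adjusted p = 0.0023). Arg1, which hydrolyses arginine, was at 4.45 to 14.5 CPM in healthy blood, 2.69 to 6.36 in LLC blood, and 3233, 1758 and 1378 CPM in LLC tumor. It rose by 9.15 ± 0.63 over LLC blood (adjusted p = 2.75e-06). Ccl24 rose by 7.17 (adjusted p = 1.07e-06), Mrc1 by 6.04 (adjusted p = 3.68e-07) and Egr2 by 5.78 (adjusted p = 6.43e-06). The 2 lower genes against LLC blood were Chil3, also in the monocyte marker list, and Clec10a. Chil3 was at 2736 to 2920 CPM in LLC blood and 1123 to 1647 in tumor, and Clec10a at 33.9 to 41.5 and 11.5 to 13.1. Retnla, Ccl17, Ccl22 and Alox15, which did not pass the filter, were at 0.621 CPM or less in tumor. Mrc1 is also in the macrophage marker list, and Cdh1, counted among the higher genes, is also in the tumor or epithelial list. The count in LLC blood was 7 without LLC tumor 1.

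Genes whose profile over the 9 libraries lay nearest to a member were found among 9707 genes by the root mean square difference of log2 levels, each centred on its own mean. Nearest to Cish were Fmnl2 (0.32) and Etv5 (0.36); Fmnl2 was at 3.38 CPM in healthy blood, 2.04 in LLC blood and 81.6 in tumor, the same dip and rise. Nearest to Socs3 was Sntb2 (0.12), at 11.1, 27.7 and 71.0 CPM. Nearest to Pim1 were Mxi1 (0.17) and Abcc3 (0.18), and nearest to Jak2 was Fndc3a (0.07).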

How the data were processed

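The estimated counts per gene, as deposited by the authors in 1 table with 1 column per library, were used for 9 RNA-seq libraries. The authors had estimated them from reads assigned to genes, with no normalization in the table: estimated counts that are fractional show reads divided between genes. Per the submitters' processing notes, the tools named for the series include Trim Galore 0.6.7, STAR 2.6.1d and Salmon 1.9.0 with the mm10 build; their role for each file, the annotation and the strand setting are not given in the sources used here. A second deposited table holds CPM for 10693 genes, used for gene identifiers and an alternative: its values gave whole reads in 100% of cases (tolerance 0.1), all equal to the rounded counts. Column heads reading "BM" were taken as blood monocytes.

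Counts were rounded, filtered (filterByExpr) and fitted for all 9 libraries together with edgeR 4.0.16 in R 4.3.3 (TMM scaling, group as the term, quasi-likelihood test, Benjamini-Hochberg adjustment over 12337 genes, called at an adjusted p under 0.05). Standard errors are the change divided by the square root of F. The fit was tested on simulated counts for these 12337 genes. Alternatives were other scaling, no filter, DESeq2 1.42.0, only the 6 libraries compared, a replicate block, and each library left out. Added after seeing the data were the block with 6 libraries, the recovered reads, summed Stat5a and Stat5b counts, the same alternatives for named pathway genes and list counts, and each library left out of the count ratios.

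Members and lists were chosen with earlier results of these data known. All members were named. Of other pathway genes, all kinases, STATs and SOCS genes could be named. From each other list at most the 4 most changed called genes whose mean reached 5 CPM were named. Outside this rule, some target genes that were lower in tumor or did not pass the filter were added after their values were seen. Likeness used the same minimum of 5 CPM. Some results of these lists are not reported here. Promoter windows and positions are from RefSeq, GRCm38.p6. Depth limits the low genes: 3 counts equal 0.139 to 0.339 CPM. Intervals cover counting error only.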

Additional observations from a re-analysis of the deposited data

How the results depend on the processing

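In tumor against LLC blood the 9 called genes kept their direction and call under every alternative run, and in tumor against healthy blood the same held for 7 of the 8, Socs1 being the exception given above. Stat6 in tumor against healthy blood (-0.01) turned positive with DESeq2 size factors (0.0355) and DESeq2 (0.0351), and ranged from -0.126 to 0.0443 with 1 library left out (positive without LLC tumor 2 or, at 0.0275, LLC tumor 3); with library totals alone it was called at -0.19, and Stat3 was then called at -0.24. Library totals took the median of all genes from -0.03 to -0.23 in tumor against LLC blood and from -0.00 to -0.17 against healthy blood, and upper-quartile factors took the latter to -0.10. The number of the 10 genes called in LLC blood against healthy blood (5) ranged from 2 to 7 with 1 library left out. All genes called there (2917) were 4889 with only the 6 libraries compared and 4820 with these and a replicate block, and ranged from 1494 (without LLC blood 2) to 5064 (without LLC tumor 1); the count was also below the main one by over 1.5 times without healthy blood 2 (1873), healthy blood 3 (1697) or LLC blood 3 (1577). Of the called genes 1732 were higher and 1185 lower there, against 1490 and 1727 with upper-quartile factors and 2181 and 2883 without LLC tumor 1; in tumor against LLC blood 3652 were higher and 3914 lower, against 2856 and 5013 with library totals, and in tumor against healthy blood 4137 and 4072, against 3725 and 4726 with upper-quartile factors and 3375 and 4955 with library totals. With the replicate number as a block in all 9 libraries, 5, 9 and 8 of the 10 genes were called, as without it, and 2788, 7455 and 8093 genes in all; Stat4 (adjusted p = 0.0604) and Ptpn11 (adjusted p = 0.0594) lost their calls in LLC blood. With the block and only the 6 libraries compared, 7, 9 and 7 of the 10 genes were called: Jak2 and Pim1 gained calls in LLC blood (adjusted p = 0.0407 and 0.0211) and Socs1 lost its call in tumor against healthy blood (adjusted p = 0.0848), as did Socs7 in tumor against LLC blood (adjusted p = 0.0521). Same-numbered libraries correlated at 0.30, 0.18 and 0.07 between the blood groups, and at -0.08, 0.12 and -0.14 between tumor and LLC blood. Between tumor and healthy blood the values were 0.08, 0.05 and 0.09, and not every library correlated best with its own number. These values do not describe whole library profiles, which correlated at 0.960 to 0.994 within the groups. With 3 libraries a group the values by number cannot settle whether equal numbers mark pairs. The labels do not say that they share a mouse, so the main fit had no block. The causes were not tested.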

Other observations

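The cytokines Il6, Il10 and Ifng, outside the genes named above, chosen after their values were seen, were at the edge of detection in blood. Il6, the ligand that gives gp130-STAT3 signalling its textbook form, had 4 counts in all of healthy blood, 3 in LLC blood and 238 in LLC tumor, a ratio of 121.7 between tumor and LLC blood (exact 95% interval 41.1 to 594.2; 200.9 without LLC blood 3, which held 2 of the 3 counts). Il10, an activator of STAT3 in macrophages, had 8, 2 and 137 counts, a ratio of 105.1 (interval 28.5 to 876.2). LLC tumor 1 held 96 of the 137 counts, and without it the ratio was 43.8 (interval 11.4 to 374.0). Interferon-gamma (Ifng), made by NK and T cells, had 79, 6 and 4 counts, and LLC blood stood at 0.0762 times healthy blood (interval 0.0272 to 0.173; 0.119 without healthy blood 3, which held 46 of the 79 counts), with the NK markers at 190.7 to 475.3 CPM in healthy blood and 26.0 to 49.0 in LLC blood; the part of those cells was not tested. The intervals cover counting error only and not the spread between libraries.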
